A study of Homo sapiens with 24 samples.

Results

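Nascent transcription of the 10 genes that encode the Polycomb deubiquitinase built from ASXL proteins and BAP1, together with its partner proteins, was followed in U2OS cells with and without ionizing irradiation (IR). The genes ASXL1, ASXL2, BAP1, KDM1B, MBD5, MBD6, FOXK1, FOXK2, HCFC1 and OGT were taken by matching the Ensembl identifiers of the gene body count table, without their versions, to these symbols in GENCODE release 44. All 10 were found among the 54377 genes of the table, and all 10 were among the 21246 genes with enough counts to be tested. U2OS is an established human osteosarcoma cell line. Irradiated cells received 10 Gy and nonirradiated cells received none, and neither group carried any other treatment. From each condition, RNA polymerase II (RNA Pol II) was precipitated with an antibody to its C-terminal domain (CTD) phosphorylated on tyrosine 1 (Y1P), serine 2 (S2P) or serine 5 (S5P), and the nascent RNA held by it was sequenced (mNET-seq). The labels give each replicate number in 2 batches and do not say what a batch is. Counts of the 2 batches differed little, so they were taken as repeat runs of 1 library and summed. This gives 6 groups of 2 libraries. The labels give 10 min for the irradiated samples, whereas the methods give a longer interval between IR and collection, so the time is not settled. The study's text speaks of biological replicates, but in a number that does not match the replicate numbers of the labels. The labels do not tie those numbers to separate cultures, so p-values measure the spread between these libraries, which may be technical in part.

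The deubiquitinase removes the single ubiquitin that Polycomb repressive complex 1 places on a lysine in the tail of histone H2A. BAP1 is the catalytic subunit, a cysteine protease of the ubiquitin C-terminal hydrolase family and a tumor suppressor. An ASXL protein must bind BAP1 for it to act on nucleosomes, and ASXL1 is frequently mutated in myeloid malignancies. FOXK1 and FOXK2 are forkhead transcription factors that bring the complex to DNA. MBD5 and MBD6 are methyl-CpG-binding-domain proteins that bind the complex, KDM1B is a lysine demethylase of histone H3 found with it, HCFC1 is a scaffold protein of many transcription complexes, and OGT is the transferase that attaches N-acetylglucosamine to nuclear proteins and cleaves the HCFC1 precursor. Here, only RNA still held by RNA Pol II was counted, so the values describe polymerase on these genes and not the amount of mRNA or protein.

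The gene bodies counted, from 200 bp downstream from the transcription start site to the transcript end site on the sense strand, differ widely in length. On hg38, ASXL1 lies at chr20:32358330-32439319 and spans 80.99 kb on the plus strand. ASXL2 lies at chr2:25733753-25878487 on the minus strand, and OGT at chrX:71533087-71575892 on the plus strand. BAP1 (9.001 kb), MBD6 (9.439 kb) and HCFC1 (24.262 kb) are the short genes of the group, the other 7 span 42.806 kb (OGT) to 495.961 kb (MBD5), and the introns are part of every span.

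The sequences below place ASXL1, the gene with the largest difference after IR, against the counted window. The study selected ASXL1 from these same data as an example of a gene with lower signal after IR, so its result here is not independent evidence. Its PCR primers, printed in lower case, each matched chr20 of hg38 at 1 place.
ASXL1 FWD PRO RT, chr20:32357954-32357974, plus strand: gtcctgaagcaaaaagcaccg
ASXL1 REV PRO, chr20:32358053-32358070, minus strand: gcgaggtgcgagaactgg
ASXL1 FWD PAUSE, chr20:32358433-32358451, plus strand: ctcagcagagcgggaaagc
ASXL1 PAUSE REV RT, chr20:32358495-32358513, minus strand: atcgctaaggaatgcggcg
ASXL1 EX FWD, chr20:32369024-32369043, plus strand: ccctctcgcatgcctcaatg
ASXL1 EX REV, chr20:32369094-32369113, minus strand: aaaaggctgattcggccagg
ASXL1 IN REV, chr20:32369145-32369166, minus strand: agtccaagaatcactgcaccaa
The PRO pair, which begins at position -376 relative to the annotated start, reads RNA that runs antisense from the promoter. The PAUSE pair lies in exon 1, with its outer end 103 bp downstream from the start, in a non-coding part. Neither pair lies in the counted window. The EX pair lies in coding exon 4 of the 13 exons of the Ensembl canonical transcript, and IN REV lies in intron 4, so these 3 primers fall in the gene body whose counts are given here.

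Promoter windows of the 3 genes that fell with Y1P, each from 250 bp upstream to 50 bp downstream of a RefSeq start (GRCh38.p14), were searched on both strands for 3 motifs and are printed 5′ to 3′ on the strand of the gene, with matches in capitals.
ASXL1, chr20:32358081-32358380, plus strand: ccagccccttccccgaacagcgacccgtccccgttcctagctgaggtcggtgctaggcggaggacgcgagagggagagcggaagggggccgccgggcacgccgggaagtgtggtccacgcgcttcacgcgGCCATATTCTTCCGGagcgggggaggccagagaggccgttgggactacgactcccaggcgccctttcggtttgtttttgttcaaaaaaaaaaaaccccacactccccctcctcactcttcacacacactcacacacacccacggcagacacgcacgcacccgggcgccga
ASXL2, chr2:25878438-25878737, minus strand: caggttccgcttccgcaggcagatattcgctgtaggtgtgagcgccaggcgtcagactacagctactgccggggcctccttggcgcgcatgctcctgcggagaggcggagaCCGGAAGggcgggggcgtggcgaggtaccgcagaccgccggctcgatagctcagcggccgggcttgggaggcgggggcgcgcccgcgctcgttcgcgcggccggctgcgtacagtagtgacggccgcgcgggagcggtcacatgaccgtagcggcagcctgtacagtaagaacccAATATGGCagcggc
OGT, chrX:71532854-71533153, plus strand: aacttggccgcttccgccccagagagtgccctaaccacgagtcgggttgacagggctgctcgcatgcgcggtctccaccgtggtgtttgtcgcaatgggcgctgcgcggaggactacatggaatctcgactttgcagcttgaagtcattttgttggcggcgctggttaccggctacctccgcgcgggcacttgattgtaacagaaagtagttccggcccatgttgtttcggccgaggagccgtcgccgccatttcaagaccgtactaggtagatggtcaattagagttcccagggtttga
The motif AANATGGC of YY1, a factor that binds both HCFC1 and BAP1, was found in the printed ASXL1 and ASXL2 windows, and 6.58% of 34796 distinct RefSeq windows of this length held it. The ETS motif CCGGAAG (10.2% of windows) was also found in both. Neither of these nor the forkhead motif GTAAACA (3.42%), to which FOXK proteins bind, was found in the OGT window. Windows of KDM1B, MBD5, MBD6, FOXK1 and FOXK2 were also searched, and of these the FOXK1 window held the YY1 motif and the MBD5 windows the ETS motif. Further windows of ASXL1 and ASXL2 were searched but are not printed. The ASXL1 window chr20:32358094-32358393 held the same matches as the printed one, and chr20:32358815-32359114 held the YY1 motif alone. The ASXL2 window chr2:25794642-25794941 held none of the 3 motifs. BAP1 and HCFC1 were not searched. A match describes these letters only.

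The libraries held 16220773 to 33144659 gene body counts. Counts are given below as counts per 1000000 counts of the library (CPM), scaled by trimmed-mean (TMM) factors. The factor of the nonirradiated Y1P library of replicate 2 was 0.835, whereas the other 11 libraries had factors of 0.942 to 1.09, so the Y1P calls are also given without replicate 2. The cell line was checked with 8 markers of bone and mesenchymal cells, of which 5 had a median of at least 1 CPM, among them RUNX2 with a median of 599 CPM, whereas BGLAP had no counts in any library. Of 8 markers of other lineages, 5 also had a median of at least 1 CPM. The summed level was 582 to 923 CPM for the first list, of which RUNX2 alone gave 385 to 696 CPM, against 32.6 to 55.0 CPM for the other lineages. In bulk libraries of this kind, fewer transcribing cells and less nascent RNA in each cell cannot be told apart.

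Per kilobase of gene body, HCFC1 was highest of the 10 genes with a mean of 5.53 CPM per kb over the 12 libraries, followed by BAP1 (5.30), OGT (4.90), ASXL1 (4.30), MBD6 (3.62), FOXK1 (2.50), FOXK2 (1.80) and ASXL2 (1.29). The range of each of these over the libraries overlapped that of its neighbor in the order. Within every library, however, MBD6 lay above FOXK1, FOXK1 above FOXK2 and FOXK2 above ASXL2. The order from HCFC1 to MBD6 changed between libraries. MBD5 (0.277 CPM per kb) and KDM1B (0.169 CPM per kb) were separated from each other and from ASXL2 in every library. ASXL1 had a density above that of ASXL2, with 3.347 to 5.499 against 1.09 to 1.53 CPM per kb over the libraries. The ranges of FOXK1 (2.15 to 2.87) and FOXK2 (1.48 to 2.37) overlapped, although FOXK1 was higher in each library.

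**Figure D1:**
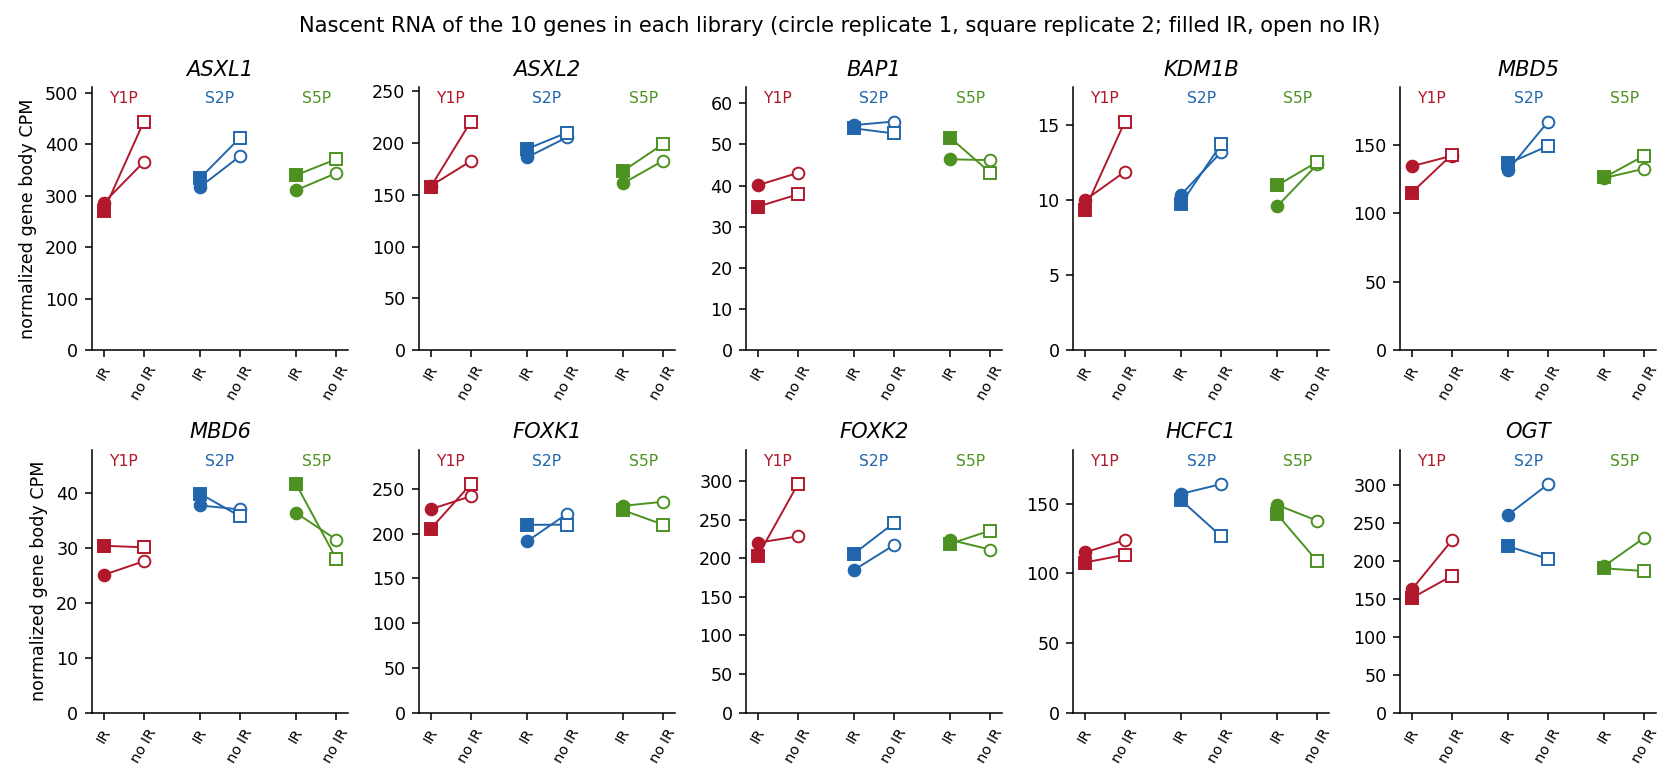
Normalized gene body CPM (y axis, from 0) of each gene in the 12 libraries, by antibody and condition (x axis). Each line joins an irradiated (filled) and a nonirradiated (open) library of the same replicate number, circles for replicate 1 and squares for replicate 2. ASXL1, ASXL2, KDM1B and MBD5 were lower in both irradiated libraries with every antibody. How many of all genes were lower with every antibody was not counted. BAP1, MBD6 and HCFC1 were higher in both with S5P, and MBD6 also with S2P.

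With Y1P RNA Pol II, 3 of the 10 genes fell after IR, namely ASXL1, ASXL2 and OGT, and none rose. A gene was called where its adjusted p was below 0.05 and its log2 fold change was below -0.1 or above 0.1, by edgeR's quasi-likelihood test with Benjamini-Hochberg adjustment over all 21246 genes. Over all genes, 4.28% were called lower (909 genes) and 4.38% higher (931 genes). All 10 members had log2 fold changes below 0, with a median of -0.25, against a median of 0.019 over all genes tested and -0.039 over the 14661 protein-coding genes. In 9 of the 10 both irradiated libraries were below their nonirradiated partner of the same replicate number, whereas 32.9% of all genes showed this. Where library totals replaced the TMM factors, the median over all genes rose by 0.19 with Y1P and by 0.17 with S2P, and BAP1, MBD6 and HCFC1 were then above 0 with Y1P. With those totals 49 genes were called lower and 1188 higher with Y1P. Without Y1P replicate 2, 0 members were called by edgeR, and over all genes 7 were called lower and 2 higher.

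ASXL1 had 286 and 270 CPM in the irradiated Y1P libraries of replicates 1 and 2, against 366 and 444 CPM in the nonirradiated ones. Both irradiated values were below both nonirradiated values, and the gap was wider in replicate 2. The share of all genes whose groups did not overlap was not counted, here or for the other members and antibodies. The log2 fold change was -0.53 ± 0.10 (SE), a fall of 31.0% with a 95% interval of -0.74 to -0.33 (adjusted p = 0.0178, edgeR). ASXL1 was called lower in 11 of 13 alternative settings. It was not called without the replicate block (adjusted p = 0.119, edgeR) or without Y1P replicate 2, where its log2 fold change was -0.32 (adjusted p = 0.386, edgeR).

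ASXL2, the second ASXL activator of BAP1, had 159 and 158 CPM in the irradiated Y1P libraries, against 183 and 221 CPM in the nonirradiated ones. The groups did not overlap, and the irradiated libraries were almost alike. It fell by 0.34 ± 0.09 on the log2 scale (SE; adjusted p = 0.0362, edgeR) and was called in 6 of 13 alternatives, with log2 fold changes of -0.50 to -0.15 over them. Without Y1P replicate 2 the log2 fold change was -0.17 (adjusted p = 0.548, edgeR).

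OGT had 162 and 151 CPM in the irradiated Y1P libraries, against 227 and 180 CPM in the nonirradiated ones. The irradiated libraries were both lower, and here the gap was wider in replicate 1. Its log2 fold change was -0.37 ± 0.10 (SE; adjusted p = 0.0448, edgeR), and it was called in 5 of 13 alternatives. Leaving out Y1P replicate 1 gave -0.27 (adjusted p = 0.183, edgeR), and leaving out replicate 2 gave -0.45 (adjusted p = 0.348, edgeR).

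The other 7 members did not pass the test with Y1P. KDM1B, the demethylase, was the least transcribed member, with 9.97 and 9.33 CPM after IR against 11.9 and 15.2 CPM without. These values rest on 198 to 271 counts per library. The groups did not overlap, with a log2 fold change of -0.48 ± 0.15 (SE; adjusted p = 0.0585, edgeR), and 5 of 13 alternatives called it lower. Without Y1P replicate 2 it had -0.22. FOXK2 had 220 and 202.7 CPM after IR against 228 and 296 CPM without, and its log2 fold change of -0.30 (adjusted p = 0.0889, edgeR) was -0.017 without Y1P replicate 2. WDR45B, which overlaps FOXK2 on the opposite strand over 30101 bp, had a log2 fold change of -0.46 ± 0.10 (SE) with Y1P and was called lower (adjusted p = 0.0241, edgeR); the counting was strand-specific. FOXK1 (log2 fold change -0.20, adjusted p = 0.168, edgeR) and MBD5 (-0.20, adjusted p = 0.178, edgeR) had no overlap between the groups either, with 227 and 205 CPM against 242 and 255 CPM for FOXK1. Without Y1P replicate 2 these log2 fold changes were -0.053 and -0.043.

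The catalytic subunit itself and 2 other short genes lay closest to 0. BAP1 had 40.1 and 34.9 CPM in irradiated Y1P libraries, against 43.1 and 37.8 CPM in nonirradiated ones, where replicate numbers differed more than conditions. HCFC1 had 115 and 108 CPM after IR, against 124 and 113 CPM without. For MBD6 the values were 25.1 and 30.4 CPM after IR, against 27.6 and 30.2 CPM without. Their log2 fold changes were -0.11 (95% interval -0.33 to 0.10), -0.090 (-0.30 to 0.12) and -0.061 (-0.31 to 0.19), intervals that leave room for a fall by up to 0.30 or more on the log2 scale.

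**Figure D2:**
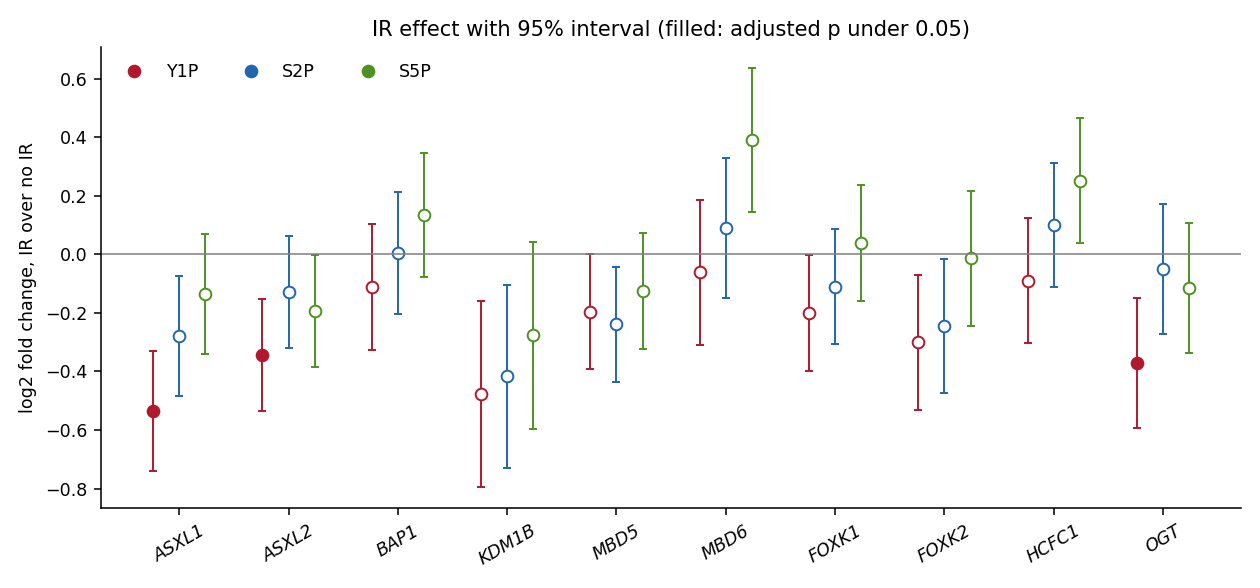
Log2 fold change of IR over no IR (y axis) for each gene (x axis) with Y1P, S2P and S5P RNA Pol II. Points are estimates from 2 against 2 libraries, bars are 95% intervals, and filled points passed the test across all genes, which were ASXL1 (-0.53), ASXL2 (-0.34) and OGT (-0.37) with Y1P.

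With S2P RNA Pol II, 0 of the 10 genes were called by edgeR in either direction, where 0.0847% of all genes were called lower and 0.0141% higher. At an unadjusted p below 0.05 there were 4 members, all with negative log2 fold changes, and their lowest adjusted p was 0.189. Of all 21246 genes, 3761 were below that unadjusted limit, 1996 of them with negative log2 fold changes. DESeq2 on the same libraries also called 0 members, and 0.795% of the 6667 genes it gave an adjusted p. The 10 had a median log2 fold change of -0.12, against 0.021 over all genes. ASXL1 had 317 and 334 CPM in irradiated S2P libraries, against 377 and 413 CPM in nonirradiated ones, without overlap. Its log2 fold change was -0.28 ± 0.10 (SE), with an interval of -0.48 to -0.072. KDM1B had 10.3 and 9.75 CPM after IR, against 13.2 and 13.7 CPM without, a log2 fold change of -0.42 ± 0.15 (SE). MBD5 (-0.24) and FOXK2 (-0.24) were the other 2, and their groups did not overlap either, which was not counted over all genes. ASXL2 had 186 and 194 CPM after IR, against 205.7 and 210.2 CPM without, a difference of the same direction in both pairs that did not pass the test (log2 fold change -0.13, adjusted p = 0.446, edgeR). In 6 of the 10 genes both irradiated S2P libraries were below their partners, against 30.6% of all genes.

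At OGT and BAP1 the S2P groups overlapped. OGT had 261 and 219 CPM in irradiated S2P libraries, against 301 and 202.8 CPM in nonirradiated ones, lower in replicate 1 and higher in replicate 2. BAP1 had 54.7 and 53.9 CPM after IR against 55.6 and 52.7 CPM without. Its log2 fold change was 0.0048 with an interval of -0.20 to 0.21, and its direction turned with relative log expression factors, both DESeq2 fits, removal of the length trend or removal of S2P replicate 2.

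With S5P RNA Pol II, 0 of the 10 genes passed the test by edgeR, with a background of 0.0424% of all genes lower and 0.00941% higher. DESeq2 on the same libraries called 0 members as well, and 0.118% of the 15214 genes it gave an adjusted p. An unadjusted p below 0.05 was found for 3 members and for 2469 of all 21246 genes. The members divided here by direction, with 6 log2 fold changes below 0 and 4 above, and a median of -0.064. MBD6, a methyl-CpG-binding-domain protein, had 36.4 and 41.7 CPM in irradiated S5P libraries, against 31.6 and 28.1 CPM in nonirradiated ones. Both irradiated values were above both nonirradiated values. The log2 fold change was 0.39 ± 0.11 (SE, interval 0.15 to 0.64; adjusted p = 0.280, edgeR). HCFC1 likewise had 149 and 142 CPM after IR, against 138 and 109 CPM without, a log2 fold change of 0.25 ± 0.10 (SE; adjusted p = 0.372, edgeR). A separate fit for the S5P libraries called both of these genes higher, but it called 3.06% of its 19359 genes higher (593 genes) and 2.34% lower (453 genes). Without S5P replicate 2 the log2 fold changes were 0.18 for MBD6 and 0.088 for HCFC1.

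ASXL2 with S5P had 161 and 173 CPM after IR, against 183 and 199 CPM without, and was the third gene with an unadjusted p below 0.05 (log2 fold change -0.19, adjusted p = 0.426, edgeR). ASXL1 had 311 and 340 CPM after IR, against 344 and 371 CPM without. In both ASXL genes all irradiated values lay below all nonirradiated ones, but the shift of ASXL1 (-0.14 ± 0.10, SE) was close to the difference between its replicates. BAP1 had 46.4 and 51.6 CPM after IR, against 46.2 and 43.1 CPM without, so the difference came from replicate 2. In 4 of the 10 genes both irradiated S5P libraries were below their partners, against 31.8% of all genes. In 3, namely BAP1, MBD6 and HCFC1, both were above, and the share of all genes with both above was not counted.

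The IR effects were then compared between antibodies with an interaction term. The effect with S5P minus that with Y1P was above 0 for all 10 genes, with estimates of 0.071 (MBD5) to 0.45 (MBD6). Their median was 0.25, against -0.0017 over all genes tested and 0.046 over protein-coding genes. The share of all genes above 0 was not counted. With library totals in place of the TMM factors, the median of this contrast over all genes was -0.15. None of the 10 genes passed the test by edgeR, and 0% of all 21246 genes did. At an unadjusted p below 0.05 there were 3 members, MBD6 (0.45 ± 0.16, SE), ASXL1 (0.40 ± 0.14, SE) and HCFC1 (0.34 ± 0.14, SE), each with an adjusted p of 0.666 (edgeR). Of all 21246 genes, 1569 were below that unadjusted limit. DESeq2 on the same libraries called 0 members, and 0.0025% of the 40079 genes it gave an adjusted p. For S2P minus Y1P the estimates were -0.044 to 0.32. OGT (0.32 ± 0.15, SE) alone of the members had an unadjusted p below 0.05, as did 661 of all genes. For this contrast 0 members were called by edgeR or by DESeq2 on the same libraries, and each of them called 0% of all genes. For S5P minus S2P 0 members were called by either tool, with 0.00471% of all genes called by edgeR and 0.0025% by DESeq2. None of the members had an unadjusted p below 0.05, whereas 921 of all genes did. The fall of ASXL1, ASXL2 and OGT with Y1P was therefore not shown to differ from their changes with S2P or S5P. Each such comparison shares libraries with the IR effects above.

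Gene length moved with the IR effect over protein-coding genes and among the members. Of protein-coding genes, those under 30 kb had a median log2 fold change of 0.14 with Y1P, 0.11 with S2P and 0.14 with S5P, and those of 30 to 200 kb had -0.12, -0.082 and -0.056 in that order. The 3 members under 30 kb had medians of -0.090, 0.091 and 0.25, and the 7 longer members -0.34, -0.24 and -0.12. Across the 10 members, Spearman's rho between log2 fold change and length was -0.38 with Y1P, -0.61 with S2P and -0.60 with S5P, as a description of genes measured in the same libraries. After the trend of all genes with length was removed from every library, ASXL1 kept a log2 fold change of -0.47 with Y1P and its call (adjusted p = 0.0341, edgeR), OGT had -0.35 (adjusted p = 0.0829, edgeR) and ASXL2 -0.25 (adjusted p = 0.143, edgeR). BAP1 then had -0.35 with Y1P (adjusted p = 0.0705, edgeR) and MBD6 -0.30, whereas MBD6 with S5P had 0.24 (adjusted p = 0.615, edgeR).

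**Figure D3:**
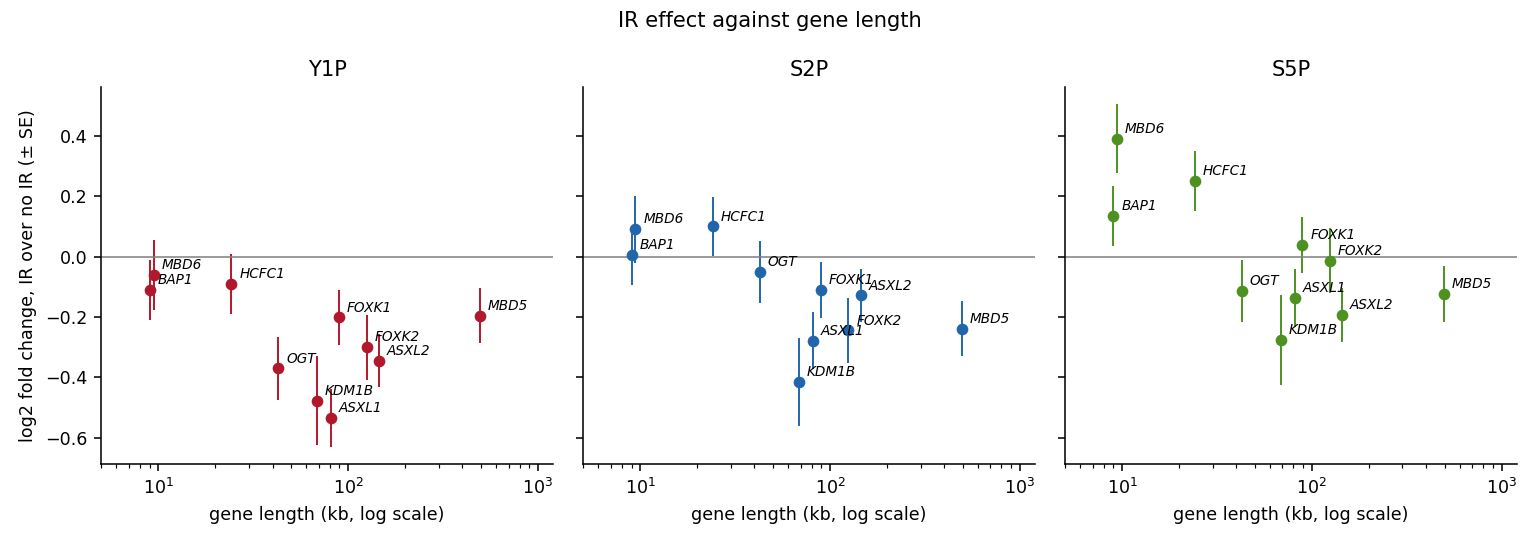
Log2 fold change of IR over no IR (y axis, ± SE) against gene length in kb (x axis, log scale) for the 10 genes, in a panel per antibody. The short genes BAP1, MBD6 and HCFC1 lay above the other members with each antibody, and the lowest values belonged to ASXL1 with Y1P (-0.53) and to KDM1B with S2P (-0.42) and S5P (-0.28).

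Replicates of nonirradiated cells differed in opposite directions for different members. OGT was lower in replicate 2 than in replicate 1 by log2 differences of -0.33 with Y1P, -0.57 with S2P and -0.31 with S5P, and HCFC1 by -0.13, -0.37 and -0.34. ASXL1 was higher in replicate 2, by 0.28, 0.13 and 0.11, and so was FOXK2, by 0.37, 0.18 and 0.16. In irradiated cells the same differences of OGT were -0.10, -0.25 and -0.024, and those of HCFC1 -0.094, -0.042 and -0.067. For OGT with S2P, the 2 nonirradiated libraries thus differed by more than the IR effect measured with any antibody.

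Antibodies were also compared within each condition, in a fit with 1 replicate block. In irradiated cells, S2P signal exceeded Y1P signal at OGT, BAP1, MBD6, HCFC1 and ASXL2, which are 5 of 10 genes. Of all genes, 24.4% were called in either direction and 11.9% with S2P higher. OGT had the largest difference of the members, with 261 and 219 CPM in S2P libraries against 162 and 151 CPM in Y1P libraries (log2 fold change 0.61 ± 0.10, SE; adjusted p = 0.000272, edgeR). BAP1 had 54.7 and 53.9 CPM with S2P against 40.1 and 34.9 CPM with Y1P (0.54 ± 0.10, SE; adjusted p = 0.000482, edgeR). Without Y1P replicate 2 the calls of BAP1, HCFC1, MBD6 and OGT were made again, and that of ASXL2 was not. S5P signal exceeded Y1P signal at BAP1, MBD6 and HCFC1, with log2 fold changes of 0.39, 0.49 and 0.39. Of all genes, 2.88% were called in either direction and 1.83% with S5P higher. No S5P call was left with library totals, without the replicate block or without either S5P replicate or Y1P replicate 2, and without Y1P replicate 1 only BAP1 was called. For S5P against S2P in irradiated cells 0 members were called by edgeR or DESeq2, with 0.231% of all genes called by edgeR. DESeq2 called 1.22% of the 8998 genes it gave an adjusted p. An unadjusted p below 0.05 was found for 3 members and for 2958 of all 21246 genes.

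In nonirradiated cells, S2P against Y1P gave 1 call among the members, BAP1, with 55.6 and 52.7 CPM with S2P against 43.1 and 37.8 CPM with Y1P (log2 fold change 0.42 ± 0.10, SE; adjusted p = 0.0114, edgeR). Of all genes, 8.47% were called in either direction and 5.45% with S2P higher. That call was not made without the replicate block, without Y1P replicate 2 or without either S2P replicate. MBD6 (0.34), OGT (0.30) and HCFC1 (0.29) had adjusted p-values of 0.0543, 0.0722 and 0.0557 (edgeR). The estimates of FOXK1 (-0.20) and FOXK2 (-0.18) were on the other side of 0. For S5P against Y1P and for S5P against S2P, 0 members were called by edgeR or by DESeq2 and 0% of all genes by edgeR. DESeq2 called 0.0025% of the 40079 genes it gave an adjusted p for S5P against Y1P. For S5P against S2P it called 12.3% of 6667 such genes. At an unadjusted p below 0.05 there were 1 and 5 members, and 1422 and 3869 of all 21246 genes. Antibody differences of single genes are relative to all genes in the same libraries.

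**Figure D4:**
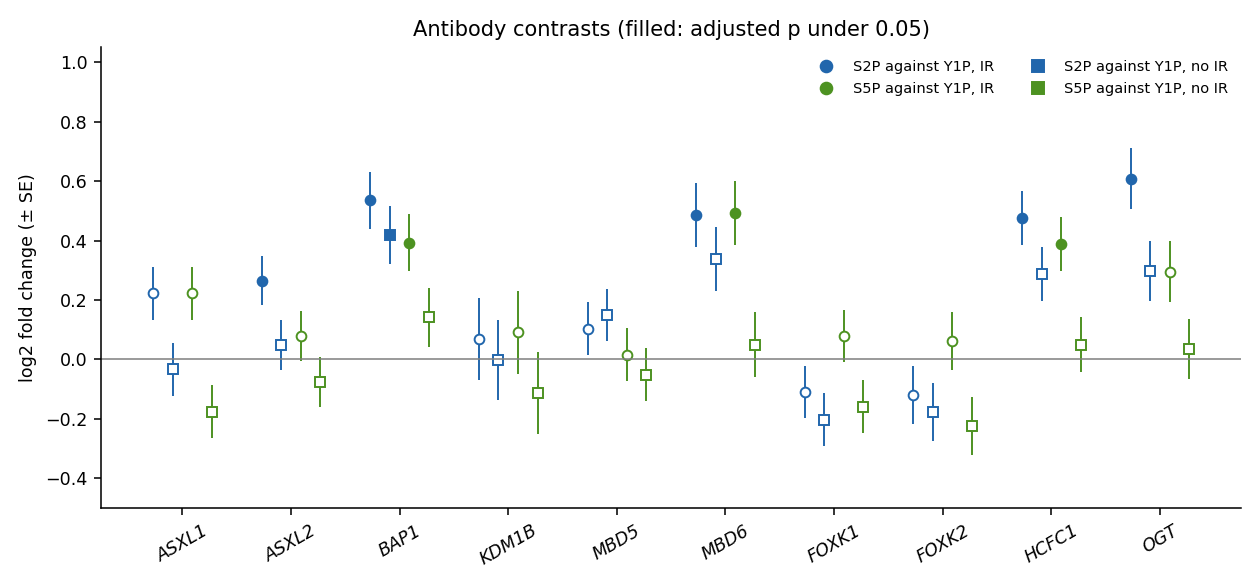
Log2 fold change of S2P over Y1P and of S5P over Y1P (y axis, ± SE) for each gene (x axis), with circles for irradiated and squares for nonirradiated cells and filled points for calls. BAP1 was called in 3 of the 4 comparisons (0.42 to 0.54 for S2P, 0.39 for S5P), and the FOXK genes were never called.

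Genes that write, read or otherwise remove the same histone mark, and paralogs of the members, were read from lists chosen with earlier results of these data known. Of 34 genes for Polycomb repressive complex 1 and other H2A deubiquitinases, 4 fell and 2 rose with Y1P, where 4.28% of all genes fell and 4.38% rose, so the number that rose was close to the background. The median log2 fold change was -0.093, against 0.019 over all genes tested. PCGF6, YAF2, PHC3 and MGA fell, by 0.73, 0.37, 0.35 and 0.32 on the log2 scale, and PCGF6, YAF2 and MGA are known subunits of variant forms of that complex. CBX8 (log2 fold change 0.74 ± 0.18, SE; adjusted p = 0.0290, edgeR) and CBX2 (0.46 ± 0.12, SE; adjusted p = 0.0352, edgeR), chromodomain readers of trimethylated H3 lysine 27, rose, and they span 9.55 and 9.84 kb, whereas the 4 that fell span 48.4 to 152 kb. With S2P and S5P 0 of the 34 were called by edgeR, where 11 and 6 had an unadjusted p below 0.05. Of all 21246 genes, 3761 and 2469 did.

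Of 12 paralogs and counterparts, 10 were tested and 1 was called with Y1P, against the same background, namely MBD2 (log2 fold change -0.31 ± 0.09, SE; adjusted p = 0.0478, edgeR), a reader of methylated DNA. ASXL3, the third ASXL gene, had 10 to 63 counts per library. With S2P and S5P 0 of these 10 were called by edgeR, where 2 and 1 had an unadjusted p below 0.05. Of all 21246 genes, 3761 and 2469 did, so these 2 counts were close to the background. The genes most like ASXL1 over the 12 libraries, by Pearson's r of log2 normalized counts among 11661 protein-coding genes, were TLK2 (0.982), CBFB (0.980) and STAU1 (0.979). Among the members KDM1B (0.930) and ASXL2 (0.915) were closest to ASXL1, at ranks 106 and 173 among those 11661 genes. FOXK2 (0.745), MBD5 (0.724), FOXK1 (0.402) and OGT (0.328) followed, whereas BAP1 (0.221), MBD6 (0.0763) and HCFC1 (-0.0123) were not close. These correlations describe 12 libraries that share conditions and replicates.

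**Figure D5:**
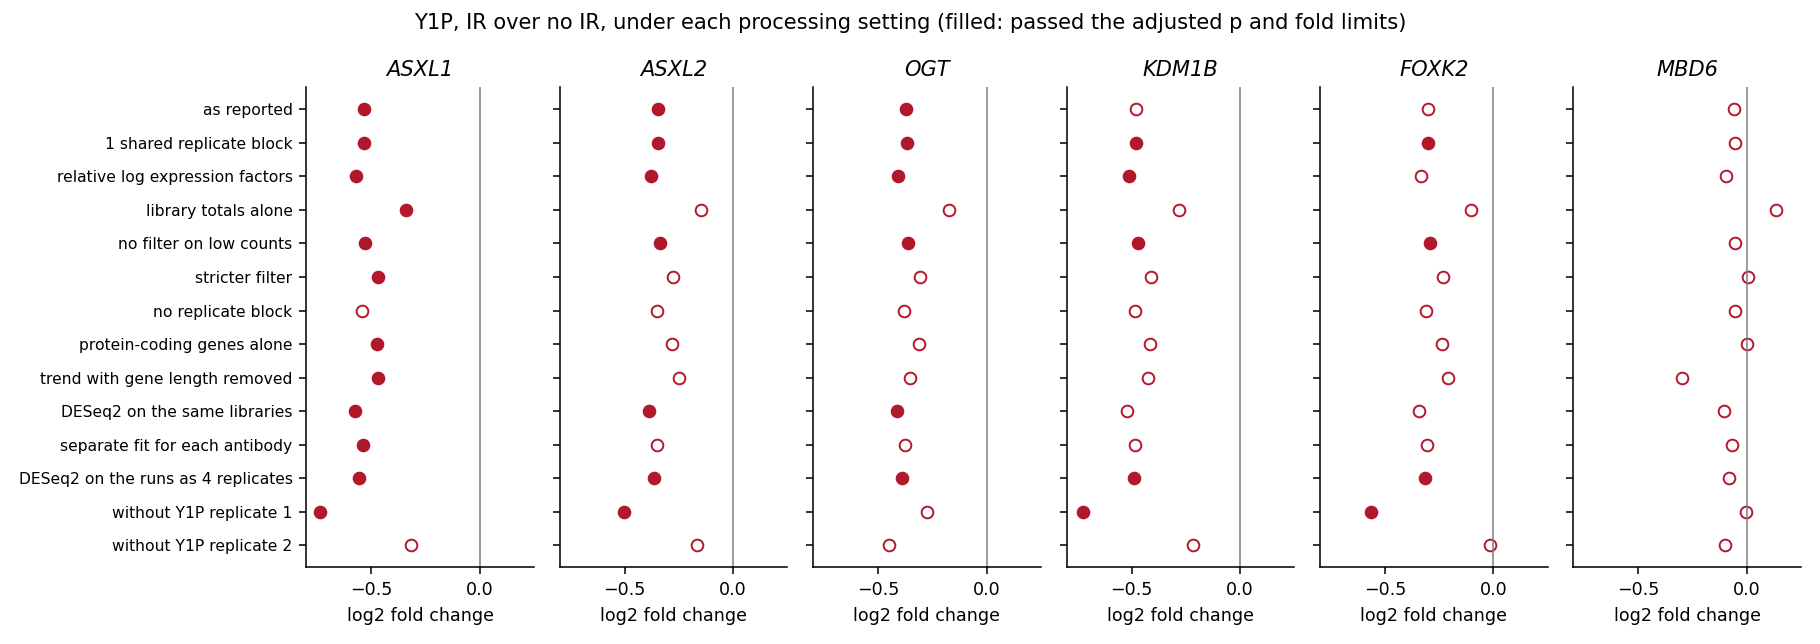
Log2 fold change of IR over no IR with Y1P (x axis) for 6 genes under the reported fit and 13 alternatives (y axis), with filled points for calls. ASXL1 was called in 11 of the 13 alternatives, ASXL2 in 6, OGT and KDM1B in 5 each, FOXK2 in 4 and MBD6 in none.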

How the data were processed

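mNET-seq libraries of U2OS cells were analysed from the table of gene body counts that the authors deposited. Per the methods, reads were trimmed with cutadapt, aligned to hg38 with STAR, kept if unique, cleared of PCR duplicates and internal priming, and counted with featureCounts on the sense strand, leaving out reads that overlap several gene bodies. The labels give cutadapt version 1.8.3, and the methods give another. Polymerase paused within 200 bp of the start is therefore left out of the counts.

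The table held 24 runs. Chi-square divided by its degrees of freedom was 1.06 to 1.10 between the batches of the same group and replicate number. It was 8.95 to 61.2 between replicate numbers of the same batch. Batches were therefore taken as repeat runs and summed to 12 libraries. Of 55399 entries, 1022 repeated identifiers without counts were dropped. Gene names came from GENCODE 44, and 120 identifiers were not matched (0.0116% of counts). Libraries were fitted in edgeR 4.0.16 (R 4.3.3) with TMM factors, filterByExpr and glmQLFTest. The design had 6 groups plus a block for replicate numbers, separate for every antibody, for IR effects and interactions (3 residual degrees of freedom), or 1 block shared by all antibodies for antibody contrasts. Same-numbered libraries deviated together, with correlations of 0.168 to 0.392 for all pairs of groups, so the numbers were taken as pairing. The lowest, 0.168, was between irradiated and nonirradiated Y1P. Those within S2P (0.282) and S5P (0.246) lay inside the range between antibodies (0.173 to 0.392). The correlations thus gave no ground for a separate block per antibody over a shared one. Calls needed an adjusted p below 0.05 and a log2 fold change below -0.1 or above 0.1. Intervals are t intervals on 14 degrees of freedom. Counts per kb were divided by the gene length minus 200 bp. Alternatives changed the normalization, filter, block, tool (DESeq2 1.42.0) and libraries. All 10 members are named, and list genes are named where called, up to 4 per list and antibody by p. CBX2 and MGA were named beyond that rule, after their values were seen. Members, lists and tests were chosen with earlier results of these data known.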

Additional observations from a re-analysis of the deposited data

How the results depend on the processing

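The count of 3 members called lower with Y1P was 5 with 1 shared replicate block, 5 without the filter, 7 with DESeq2 on the runs as 4 replicates, 1 each with library totals, the stricter filter (a mean of 50 counts), protein-coding genes alone, the length trend removed and a separate fit, and 0 without the replicate block. Over all genes the share called lower, 4.28% in the reported fit, was 8.19% with the shared block, 3.01% without the filter and 21.0% with DESeq2 on the runs, so the larger counts with the shared block and DESeq2 came with larger shares of all genes. It was 0.231% with library totals, 2.41% with the stricter filter, 1.41% for protein-coding genes, 1.95% with the length trend removed, 1.21% with the separate fit and 0.00941% without the block. With a Y1P replicate left out, each Y1P group held 1 library. Without replicate 1 the log2 fold changes with Y1P were -0.74 for ASXL1, -0.50 for ASXL2 and -0.27 for OGT. Without replicate 2 they were -0.32, -0.17 and -0.45. DESeq2 on the runs, which counts repeat runs as replicates, called 5 members lower with S2P, 2 lower and 2 higher with S5P, 3 for S2P minus Y1P and 6 for S5P minus Y1P, and the separate fit called 2 higher with S5P. Of all genes, DESeq2 on the runs called 17.4% lower with S2P, 10.8% lower and 8.18% higher with S5P, 4.33% higher and 0.405% lower for S2P minus Y1P, and 13.1% higher and 1.89% lower for S5P minus Y1P, and the separate fit called 3.06% higher with S5P. S2P against Y1P in nonirradiated cells gave 1 call, 3 with relative log expression factors, 2 without the filter, 3 with the length trend removed, 4 with DESeq2, 0 without the replicate block and 0 to 1 with a replicate left out. In irradiated cells the 5 calls for S2P against Y1P became 2 without the replicate block, and the 3 for S5P against Y1P became 0 with library totals, 0 without the block and 0 to 1 with a replicate left out. Of all genes, S2P against Y1P in nonirradiated cells called 8.47% in either direction in the reported fit. That share was 8.89% with relative log expression factors, 5.17% without the filter, 9.8% with the length trend removed, 10.8% with DESeq2 and 0% without the block. In irradiated cells it was 24.4% for S2P against Y1P and 7.68% without the block. For S5P against Y1P there it was 2.88%, 0.235% with library totals and 0% without the block. Without the replicate block the 0 calls for the other comparisons stayed at 0. ASXL1, ASXL2 and OGT, the members called with Y1P, had log2 fold changes below 0 with Y1P in all 13 alternatives. Among genes not called, library totals gave log2 fold changes of 0.082, 0.13 and 0.10 for BAP1, MBD6 and HCFC1 with Y1P, 0.043, 0.062 and 0.12 for ASXL2, FOXK1 and OGT with S2P, and 0.032 for FOXK2 with S5P. BAP1 with S2P had -0.020 with relative log expression factors, -0.15 with the length trend removed, and -0.031 and -0.0013 with DESeq2 on libraries and on runs. MBD6 had 0.0045 with Y1P under the stricter filter and -0.062 with S2P with the length trend removed, which also gave -0.023, 0.059 and 0.065 for BAP1, MBD5 and FOXK2 with S5P, and FOXK2 had 0.0039 there without the filter. Leaving out a replicate gave -0.025 to 0.016 for BAP1, -0.065 to 0.25 for HCFC1 and -0.21 to 0.095 for OGT with S2P, and with S5P -0.020 to 0.25 for BAP1, -0.054 to 0.10 for FOXK1, -0.12 to 0.057 for FOXK2 and -0.28 to 0.022 for OGT. The causes were not tested. KDM1B, the member with the lowest counts, rests on 164 to 374 counts per library, and each group on 2 libraries.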

Other observations

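Several members overlap or lie within 1 kb of a gene on the opposite strand, and 7 such neighbors averaged at least 10 counts per library. ORC4, a subunit of the origin recognition complex whose gene overlaps the start of MBD5 by 594 bp, fell with Y1P (log2 fold change -0.37 ± 0.10, SE; adjusted p = 0.0408, edgeR), whereas MBD5 had -0.20 and was not called. TMEM187, upstream of HCFC1, had a log2 fold change of 0.46 ± 0.17 (SE; adjusted p = 0.102, edgeR) with Y1P on 56 to 188 counts. PHF7, upstream of BAP1, had -0.28 (adjusted p = 0.473, edgeR). TPMT, upstream of KDM1B, had 0.30 (adjusted p = 0.311, edgeR), and DDIT3 and DCTN2, which overlap MBD6, had 0.22 and -0.17. With S2P and S5P 0 of the 7 neighbors were called by edgeR, and the lowest adjusted p was 0.217, for WDR45B with S2P. An unadjusted p below 0.05 was found for 2 and 1 of them, and for 3761 and 2469 of all 21246 genes.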
